A study of Mus musculus with 6 samples.

Results

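The transcripts of 10 mouse genes of macroautophagy were followed in articular cartilage of young and old mice: Ulk1, Becn1, Atg5, Atg7, Map1lc3a, Map1lc3b, Gabarap, Gabarapl1, Tfeb and Lamp2. The genes were picked by their symbols, for their place in the pathway, with earlier results of these data known. Each symbol matched 1 of the 33971 genes in the expression table. All 10 passed the filter on low counts that left 20397 genes for testing. The study compared ages by RNA sequencing of articular cartilage from wild-type (WT) mice, with 3 libraries at 2 months and 3 libraries at 18 months. The labels name no treatment and no altered allele in either group. The study's methods describe male mice, and name the strain C57BL/6J only for a knockout line whose libraries were not analysed here. The sources used here do not say whether a library is 1 animal or several, so p-values measure only the spread between these libraries, which may be technical.

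Macroautophagy wraps cytoplasm in a double membrane, the autophagosome, and delivers it to the lysosome for breakdown. The ULK1 kinase complex starts the process, the Beclin-1 lipid kinase complex marks the growing membrane, and a pair of ubiquitin-like conjugation systems that need ATG7 and ATG5 attach small ATG8 proteins (LC3 and GABARAP) to it. LAMP2 sits in the lysosomal membrane that the autophagosome meets, and TFEB is a transcription factor that switches on lysosomal and autophagy genes when it enters the nucleus. Chondrocytes live in a matrix without blood vessels and rarely divide, and autophagy is known as one of the ways in which they clear damaged parts. Transcript levels do not measure autophagic flux, which was not analysed here.

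The ATG8 genes carried the largest falls among the 10 genes, and their coding ends show how the family members differ at the site where they are processed. The ATG4 proteases cut an ATG8 protein after a glycine near its end, and the exposed glycine is then joined to lipid. The last 60 coding bases with the stop codon, read from GENCODE M21 transcripts on GRCm38, are printed for the 4 ATG8 genes of the group and their relative Gabarapl2, with the codon of that glycine in capitals. They lie at chr2:155277578-155277637, chr8:121596711-121596770, chr11:69994465-69994524, chr6:129541108-129541167 and chr8:111952346-111952405 in the order given, each on the plus strand, within 1 coding exon and up to the stop codon.
Map1lc3a: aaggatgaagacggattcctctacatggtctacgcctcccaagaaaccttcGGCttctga
Map1lc3b: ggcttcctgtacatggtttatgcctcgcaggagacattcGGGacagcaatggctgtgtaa
Gabarap: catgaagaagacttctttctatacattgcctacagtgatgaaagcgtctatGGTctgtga
Gabarapl1: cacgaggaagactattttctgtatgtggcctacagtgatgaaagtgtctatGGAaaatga
Gabarapl2: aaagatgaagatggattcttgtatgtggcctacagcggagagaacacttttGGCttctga
Map1lc3b has 5 codons between the glycine and the stop codon, and each of the other genes has 1. Over the whole coding sequence Map1lc3a and Map1lc3b were identical at 77.5% of aligned bases and Gabarap and Gabarapl1 at 74.9%, whereas pairs of 1 LC3 and 1 GABARAP gene reached 54.4% to 61.0%. The longest unbroken run of coding bases that a pair shared was 17, in Gabarap and Gabarapl1. How reads that match several places were counted is not given in the sources used here.

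Libraries within an age were not alike in the cells they held, and this was checked before the genes were compared. Totals ran from 48171507 to 59085179 counts per library. The 12 chondrocyte markers summed to between 11800 and 14300 FPKM (fragments per kilobase of exon, scaled to the library total) at 2 months and to 1680, 332 and 326 FPKM in 18-month replicates 1, 2 and 3, and all 12 fell. The 10 neutrophil markers summed to 8.38, 3500 and 55.4 FPKM at 2 months and to between 40800 and 45400 FPKM at 18 months. In the edgeR test described below 0 of these 10 rose, though for all 10 every 18-month library lay above every 2-month library. In the same test 2 of 7 erythroid and 1 of 7 monocyte and macrophage markers rose. In 18-month cartilage S100a9, a neutrophil protein, reached 17800 to 19400 FPKM and the beta-globin gene Hbb-bs 11400 to 15500 FPKM, above the lubricin gene Prg4 at 266 to 1390 FPKM. In the libraries labelled as cartilage at 18 months, the summed level of the neutrophil markers was thus above that of the chondrocyte markers, and at 2 months it was below. Of the 2-month libraries, replicate 2 stood apart by its marrow and bone markers, with 4160 FPKM of erythroid, 645 FPKM of monocyte and macrophage and 2410 FPKM of osteoclast markers, against at most 446, 90.8 and 429 FPKM in the other 2-month libraries. Elane, Cxcr2, Epor, Adgre1, Calcr, Gp9 and Ppbp were at 0 counts in at least 1 of the 2-month libraries. Xist, which is transcribed from the inactive X chromosome of females, had 88239 to 102417 counts at 2 months and 11 to 30 at 18 months, and the Y-linked Ddx3y had 0 to 10 and 4333 to 4839 counts, so the 2-month libraries go against the male mice of the methods. Age, sex pattern and marrow content change together in these libraries and cannot be told apart, and the part of each in the results was not tested. In bulk tissue, fewer cells of a type and less RNA per cell cannot be told apart either.

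**Figure D1:**
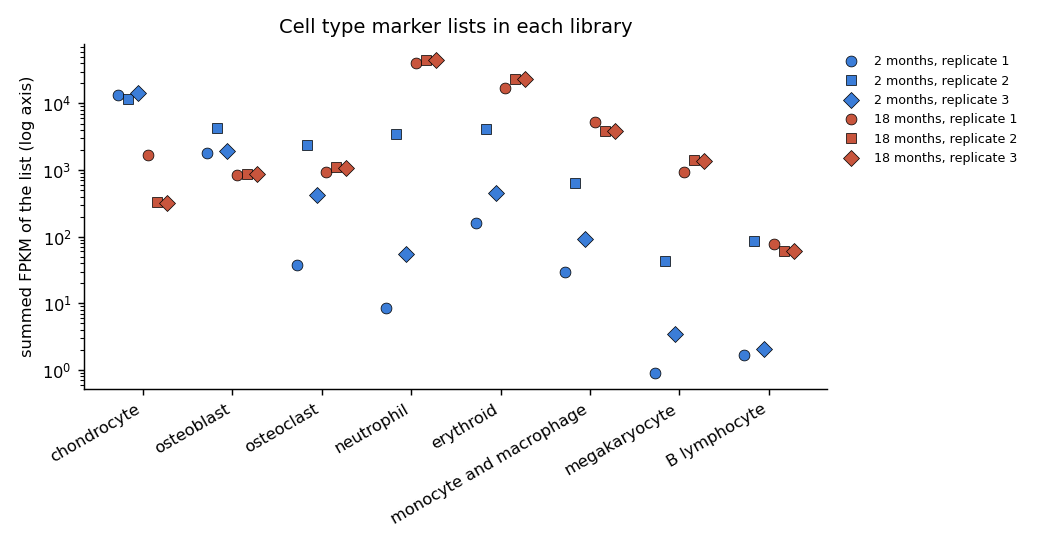
Summed FPKM of 8 cell type marker lists in each of the 6 libraries, on a log axis, with blue for 2 months, red for 18 months and a marker shape for each replicate. Chondrocyte markers are lower in all 18-month libraries, and 2-month replicate 2 lies above the other 2-month libraries in each list except the chondrocyte list.

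With age, 4 of the 10 genes rose, 2 fell and 4 did not pass the test. Becn1, Atg5, Atg7 and Tfeb were higher at 18 months by 0.53 to 0.94 on the log2 scale, whereas Map1lc3a and Gabarapl1 were lower by more than 2-fold. Ulk1, Map1lc3b, Gabarap and Lamp2 did not pass. The test was edgeR's quasi-likelihood test on counts with Benjamini-Hochberg adjustment over all genes tested, and a gene that rose or fell had an adjusted p below 0.05. These counts stand beside a background in which 23.4% of all genes tested rose and 27.9% fell, and 51.3% changed in either direction. About 1 gene in 2 changed in these libraries. The counts of the group, and of every gene list below, are read against these shares and not as a property of autophagy genes. The median log2 fold change was −0.14 over the 10 genes and −0.02 over all genes. Of the 10 genes 0 rose by more than 2-fold, against 14.9% of all genes, and 2 fell by more than 2-fold, against 21.3% (36.3% in either direction). The FPKM values of the ages did not overlap for 8 of the 10 genes, against 68.4% of all genes, with 4 above (35.6% of all genes) and 4 below (32.8%).

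**Figure D2:**
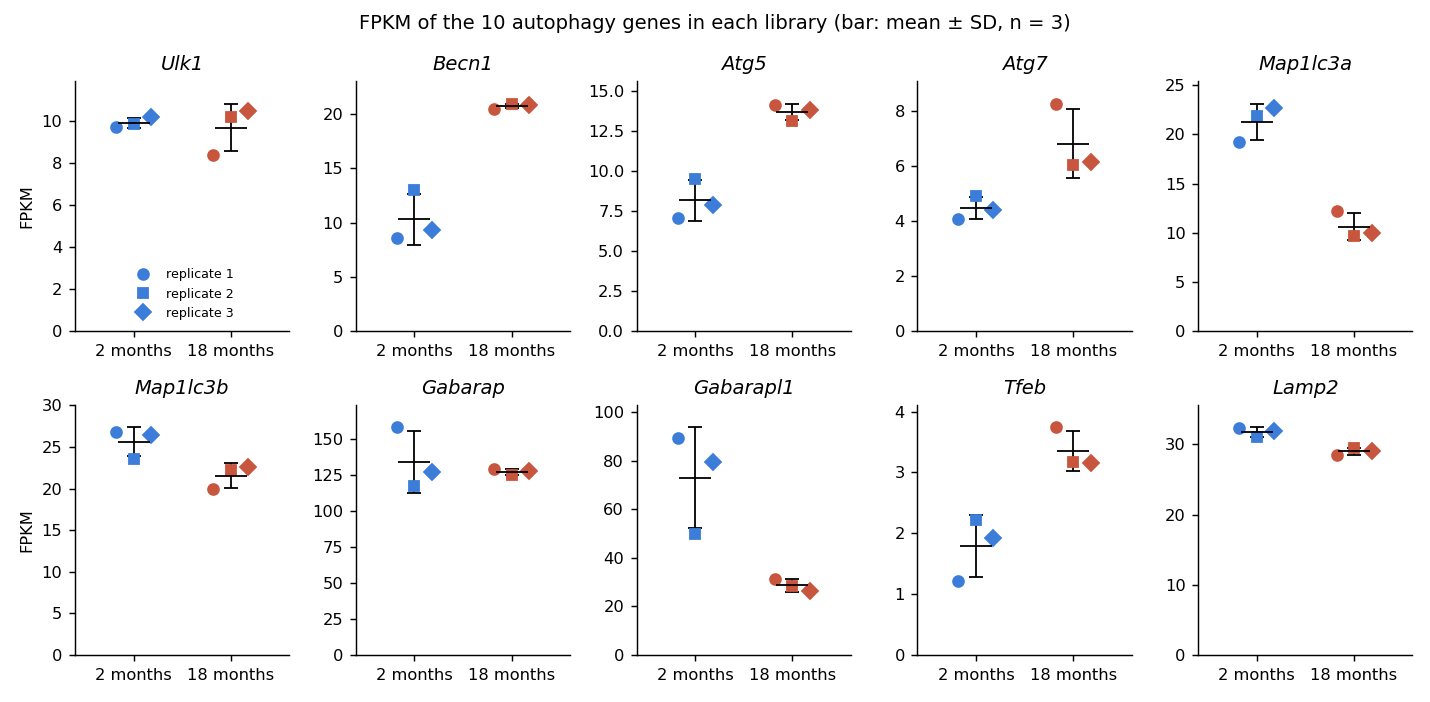
FPKM of each of the 10 genes in the 6 libraries, with 2 months in blue, 18 months in red, a marker shape for each replicate and bars for the mean ± SD of 3 libraries. Each vertical axis starts at 0 and has its own scale. The ages are separated for 8 genes and overlap for Ulk1 and Gabarap.

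Ulk1, on chromosome 5 (110784488 to 110810097, minus strand; all positions are on GRCm38), codes for the kinase that starts autophagy. Its levels were 9.74, 9.86 and 10.2 FPKM in 2-month replicates 1, 2 and 3 and 8.40, 10.2 and 10.5 FPKM in 18-month replicates 1, 2 and 3. The ages overlapped, and the log2 fold change of −0.11 (SE 0.13) did not pass the edgeR test (adjusted p = 0.52). Atg101, which stabilises ATG13 in the complex, rose from 5.60 to 7.37 FPKM at 2 months to 17.6 to 20.9 FPKM at 18 months (log2 fold change 1.48, edgeR adjusted p = 0.0012). Ulk2, the close relative of Ulk1, fell from a mean of 11.3 to 6.90 FPKM (log2 fold change −0.79, edgeR adjusted p = 0.0030). The proteins of Ulk1 and Ulk2 overlap in function, and the difference between their fold changes was not tested. Of the 5 genes of the complex, 1 rose and 2 fell.

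Becn1, on chromosome 11 (101285952 to 101302286, minus strand), codes for Beclin-1, the scaffold of the lipid kinase complex that nucleates the autophagosome membrane. Its levels were 8.57, 13.0 and 9.36 FPKM at 2 months and 20.5, 20.9 and 20.8 FPKM at 18 months. All 18-month libraries lay above all 2-month libraries, and the highest 2-month value was that of replicate 2. The log2 fold change was 0.94 (SE 0.15, edgeR adjusted p = 0.0045), the largest rise among the 10 genes, and it was 1.11 without 2-month replicate 2 and 0.97 without 18-month replicate 1. Becn1 shares 43.9% of its annotated exon bases with Cntd1 on the opposite strand, but Cntd1 had only 77 to 140 counts in any library, against 3336 to 9726 for Becn1. The rest of the list of class III PI3K complexes was mixed. Of its 9 genes 2 rose, 3 fell and 4 did not pass. Bcl2, which codes for a survival protein that binds Beclin-1 and holds it back, was 6.53 to 13.7 FPKM at 2 months and 2.36 to 3.90 FPKM at 18 months (log2 fold change −1.99, edgeR adjusted p = 0.0076). Becn1 and Bcl2 therefore moved in opposite directions, by 0.94 and −1.99.

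Atg7 and Atg5 belong to the conjugation machinery, in which ATG7 activates both ATG12 and the ATG8 proteins and ATG5 joins ATG12. Atg5, on chromosome 10 (44268358 to 44364291, plus strand), measured 7.04, 9.52 and 7.89 FPKM at 2 months and 14.1, 13.1 and 13.8 FPKM at 18 months. The ages were separated, and the log2 fold change was 0.67 (SE 0.12, edgeR adjusted p = 0.0059). It was 0.77 without 2-month replicate 2 and 0.67 without 18-month replicate 1.

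Atg7, on chromosome 6 (114643097 to 114860614, plus strand), measured 4.10, 4.91 and 4.42 FPKM at 2 months and 8.28, 6.06 and 6.16 FPKM at 18 months. The ages did not overlap, but the 18-month values were uneven, with replicate 1 the highest. The log2 fold change was 0.53 (SE 0.14, edgeR adjusted p = 0.023), 0.58 without 2-month replicate 2 and 0.40 without 18-month replicate 1. The call was lost when 2-month replicate 1 or 3 was left out (edgeR adjusted p = 0.069 and 0.070).

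Most genes of the conjugation list, which holds Atg5 and Atg7, rose. Of its 11 genes 8 rose (Atg5 and Atg7 among them), 1 fell and 2 did not pass, against 23.4% and 27.9% of all genes. The median log2 fold change was 0.41 against −0.02 over all genes. Leaving out a library gave 4 to 8 rises (4 without 2-month replicate 3, 5 without 2-month replicate 1 or 18-month replicate 2 or 3), and TPM gave 3 rises and 2 falls. Over all genes 4769 of 20397 rose in the main fit, 3083 of 21356 without 2-month replicate 3 and 3912 of 21539 on TPM. The largest log2 fold changes were those of Atg4a (1.61, edgeR adjusted p = 0.0077) and Atg4d (1.55, edgeR adjusted p = 0.0018), which code for proteases that trim ATG8 proteins and release them from membranes. Atg4a was 4.33, 8.54 and 3.88 FPKM at 2 months and 15.1, 18.8 and 19.3 FPKM at 18 months. Atg3, which codes for the enzyme that hands ATG8 proteins to lipid and was the most abundant of the list, rose from a mean of 13.9 to 27.3 FPKM (log2 fold change 0.89, edgeR adjusted p = 0.0021). Among the genes for the ATG16L proteins that complete the ATG12 and ATG5 complex, Atg16l1 rose (log2 fold change 0.40, edgeR adjusted p = 0.022) and its relative Atg16l2 fell (−0.89, edgeR adjusted p = 0.011). The call of Atg16l1 was lost without any library other than 2-month replicate 2 or 18-month replicate 1 (edgeR adjusted p = 0.051 to 0.081).

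Of the 5 ATG8 genes, the substrates of that machinery, 2 fell, 0 rose and 3 did not pass. Map1lc3a, on chromosome 2 (155276297 to 155278073, plus strand), codes for LC3A. It measured 19.2, 21.9 and 22.7 FPKM at 2 months and 12.2, 9.68 and 9.95 FPKM at 18 months. Every 18-month library lay below every 2-month library. The highest 18-month value was in replicate 1, the 18-month library with the highest sum of chondrocyte markers. That library also had the highest 18-month values of Gabarapl1, which fell, and of Atg5, Atg7 and Tfeb, which rose. Its sum of monocyte and macrophage markers was the highest at 18 months too (5200 FPKM). The part of either cell type was not tested. The log2 fold change of Map1lc3a was −1.08 (SE 0.14, edgeR adjusted p = 0.0025). It was −1.08 without 2-month replicate 2 and −1.17 without 18-month replicate 1.

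Gabarapl1, on chromosome 6 (129533160 to 129542346, plus strand), codes for a GABARAP relative first found as an early gene induced by oestrogen. It measured 89.5, 49.8 and 79.6 FPKM at 2 months and 31.4, 28.2 and 26.2 FPKM at 18 months. The ages were far apart, and 2-month replicate 2 was the lowest young library. Its log2 fold change was the largest of the 10 genes in size, at −1.45 (SE 0.27, edgeR adjusted p = 0.0072), with −1.66 without 2-month replicate 2 and −1.49 without 18-month replicate 1. Gabarapl1 shares 28.3% of its annotated exon bases with 1700101I11Rik on the opposite strand, which had 2 to 25 counts in any library against 3369 to 9897 for Gabarapl1.

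Map1lc3b, on chromosome 8 (121590361 to 121598760, plus strand), codes for LC3B, the form most used as a marker of autophagosomes. It measured 26.8, 23.6 and 26.4 FPKM at 2 months and 19.9, 22.2 and 22.6 FPKM at 18 months. The ages did not overlap, but the log2 fold change of −0.33 (SE 0.14) did not pass the edgeR test (adjusted p = 0.096). Without 2-month replicate 2 it was −0.40 and passed (edgeR adjusted p = 0.032). Gabarap, on chromosome 11 (69991143 to 69994951, plus strand), was the most abundant of the 10 genes at both ages. It measured 158, 117 and 127 FPKM at 2 months and 129, 125 and 128 FPKM at 18 months, and the ages overlapped (log2 fold change −0.16, SE 0.17, edgeR adjusted p = 0.46). Gabarapl2, the fifth ATG8 gene, did not pass either, with means of 26.6 and 27.9 FPKM (log2 fold change −0.01, edgeR adjusted p = 0.96, with values up to 0.07 under other scalings and tests, none of which passed). On FPKM rescaled to TPM it was lower, at −0.36 (limma adjusted p = 0.035).

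**Figure D3:**
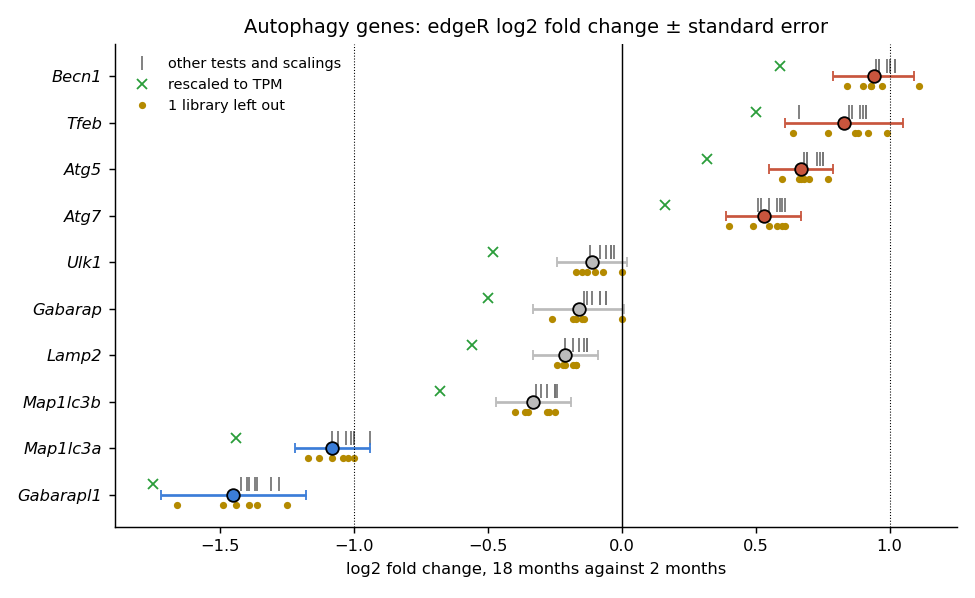
Log2 fold change of each gene, 18 months against 2 months, with the standard error as a bar, red for genes that rose, blue for genes that fell and grey for genes that did not pass the edgeR test. Vertical ticks are other tests and scalings, green crosses the values on TPM, yellow dots the fits without 1 library each, and dotted lines mark 2-fold. Becn1, Tfeb, Atg5 and Atg7 stay to the right of 0 and Map1lc3a and Gabarapl1 to the left under all of them.

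The make-up of the ATG8 transcripts within a library, which does not depend on the scaling between libraries, differed with age. It is computed from the same FPKM as the levels above, so a fall in 1 gene raises the shares of the others. Gabarap and Gabarapl2 gained in share while their mean FPKM went from 134 to 127 and from 26.6 to 27.9. Gabarap was 45.2% to 49.1% of the summed FPKM of the 5 genes at 2 months and 57.9% to 60.1% at 18 months. Gabarapl1 was 27.8%, 21.0% and 28.3% at 2 months and 14.1%, 13.3% and 12.3% at 18 months. Both shares were separated between ages (exact permutation p = 0.1 for each), as were those of Gabarapl2 (9.57% ± 1.09 and 12.9% ± 0.590, SD, n = 3 per age, exact permutation p = 0.1) and Map1lc3a (7.75% ± 1.66 and 4.90% ± 0.513, exact permutation p = 0.1). The two-sided exact permutation test of 3 against 3 libraries cannot give a p below 0.1, so no share could pass 0.05. The share of Map1lc3b was 9.20% ± 0.819 and 9.99% ± 0.891 and overlapped (n = 3 per age, exact permutation p = 0.3). Within the LC3 pair the ratio of Map1lc3a to Map1lc3b was 0.836 ± 0.109 at 2 months and 0.497 ± 0.101 at 18 months. Within the GABARAP pair the ratio of Gabarapl1 to Gabarap was 0.539 ± 0.102 and 0.225 ± 0.0197. In each pair the gene that fell was the less abundant at both ages. The summed LC3 genes over the summed GABARAP genes gave 0.205 ± 0.0356 and 0.175 ± 0.00543, which overlapped (exact permutation p = 0.4) and changed sign when counts replaced FPKM.

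**Figure D4:**
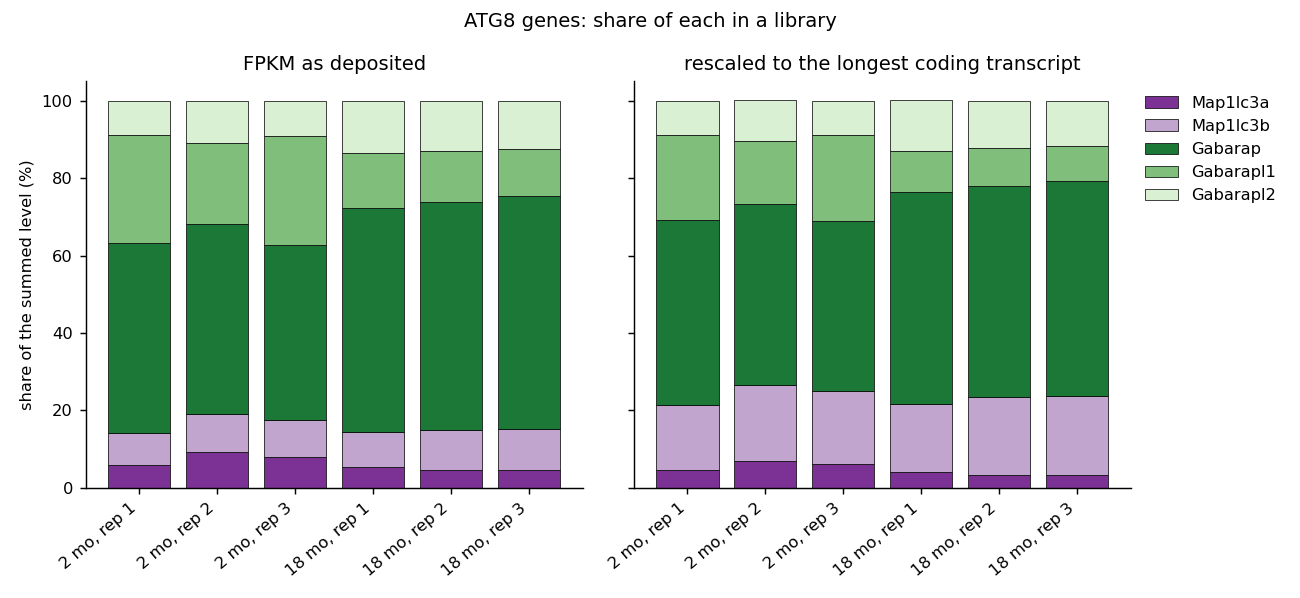
Share of each of the 5 ATG8 genes in their summed level, in percent, as stacked bars for the 6 libraries, with the deposited FPKM on the left and levels rescaled to the longest protein-coding transcript on the right. Gabarap takes 45.2% to 49.1% at 2 months and 57.9% to 60.1% at 18 months on the left, and Gabarapl1 shrinks on both sides.

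Levels compared between genes depend on the length each count was divided by. The length implied by count and FPKM was 1.14 times the merged length of all annotated exons of a gene, with both quartiles at 1.14 over 7948 genes with 5 or more transcripts. A gene with long alternative exons therefore gets a low FPKM. For Map1lc3b the merged exons span 7517 bases against 2633 in the longest protein-coding transcript, for Lamp2 9552 against 3604 and for Tfeb 5669 against 2342. Rescaled to the longest protein-coding transcript, a choice made after seeing the data, Map1lc3b was 73.0 ± 4.97 at 2 months and 61.5 ± 4.06 at 18 months (SD, n = 3), and its share of the ATG8 sum was 18.6% ± 1.46 and 19.4% ± 1.52. Gabarap was still the most abundant at 183 ± 29.6 and 174 ± 2.92, and Gabarapl1 was 80.7 ± 22.8 and 31.6 ± 2.86, whereas Lamp2 at 84.1 ± 1.72 and 76.9 ± 1.33 overlapped with it at 2 months and came second at 18 months. Fold changes between ages are the same on either length. On deposited FPKM, Gabarapl1 ranked second at 2 months, above Lamp2, and at 18 months it overlapped with Lamp2 at 29.0 ± 0.501 FPKM. Neighbours whose values overlapped were Becn1 and Ulk1 at 2 months, and Lamp2 and Gabarapl1, Map1lc3b and Becn1, and Map1lc3a and Ulk1 at 18 months. On this scale Becn1 was below Map1lc3a at 2 months and above it at 18 months, and Atg5 likewise.

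Tfeb, on chromosome 17 (47737030 to 47792419, plus strand), was the lowest of the 10 genes at both ages. It measured 1.22, 2.22 and 1.92 FPKM at 2 months and 3.74, 3.18 and 3.15 FPKM at 18 months. The ages did not overlap, and replicate 2 was again the 2-month library closest to the 18-month values. The log2 fold change was 0.83 (SE 0.22, edgeR adjusted p = 0.024) and 0.99 without 2-month replicate 2. The call was lost when 2-month replicate 3 or any 18-month library was left out, with edgeR adjusted p from 0.054 to 0.069 and log2 fold changes of 0.77 to 0.92.

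Tfeb belongs to the MiT/TFE family, whose members bind the same DNA element as dimers. Mitf, the melanocyte and osteoclast factor, was 4.14, 2.79 and 3.73 FPKM at 2 months and 1.15, 1.03 and 1.0 FPKM at 18 months (log2 fold change −1.83, edgeR adjusted p = 0.0020). Tfec, known from macrophages, was 0.0334, 1.3 and 0.0853 FPKM at 2 months and 6.23, 5.24 and 4.97 FPKM at 18 months. Its log2 fold change of 3.52 did not pass (edgeR adjusted p = 0.065), and without 2-month replicate 2 it was 6.34 (edgeR adjusted p = 0.00013). It passed with DESeq2 (3.6, adjusted p = 0.013) and with limma on log2(FPKM + 0.1) (4.09, adjusted p = 0.0098), with a pseudocount of 1 (2.23, adjusted p = 0.0019) and on TPM (4.27, adjusted p = 0.022). Tfe3 did not pass (log2 fold change 0.06, edgeR adjusted p = 0.75). In summed family FPKM, Mitf went from 26.1% to 43.0% at 2 months to 6.82% to 7.56% at 18 months, Tfec from at most 12.2% to between 37.0% and 37.8%, and Tfeb from 12.7% to 20.8% to between 22.2% and 23.7%. These shares depend on the length each count was divided by. Rescaled to the longest protein-coding transcript, the 2-month and 18-month means were 4.51 and 1.35 for Mitf and 4.33 and 8.12 for Tfeb. Those of Tfe3 were 11.8 and 13.0, and those of Tfec 1.48 and 17.2. The summed monocyte and macrophage markers moved in the same libraries as Tfec. They went from 30.0, 645 and 90.8 FPKM at 2 months to between 3900 and 5200 FPKM at 18 months. Most of the 18-month sum was Lyz2 (4840, 3560 and 3560 FPKM). Of the 7 markers 6 lay higher in every 18-month library, and Cd14 overlapped (log2 fold change −0.26, edgeR adjusted p = 0.61). Csf1r was 31.2 FPKM in 2-month replicate 2 and 32.0 to 35.1 FPKM at 18 months. The part of these cells in the result was not tested.

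The genes whose profile over the 6 libraries was most like that of Tfeb were Sppl2b, Gse1 and Enkd1, by the Euclidean distance of centred log2(FPKM + 0.1) values among 14018 genes. Their distances were 0.144, 0.195 and 0.210. Sppl2b, which codes for an intramembrane protease, measured 4.38, 7.76 and 6.35 FPKM at 2 months and 12.3, 9.72 and 10.4 FPKM at 18 months. With a pseudocount of 1, 0 of the 3 stayed among the 3 nearest, so the names rest on that choice.

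Of the genes that control TFEB, 2 of 14 rose, 4 fell and 8 did not pass. TFEB is kept in the cytoplasm when mTORC1 on the lysosome phosphorylates it. Mlst8, which codes for a subunit of mTORC1, rose by 1.48 on the log2 scale (3.06, 7.33 and 4.19 FPKM to 14.3, 13.5 and 14.6 FPKM, edgeR adjusted p = 0.0087). Tsc1, part of the brake on mTORC1, fell by 1.04 on the log2 scale (edgeR adjusted p = 0.0018) from 4.77 to 5.09 FPKM to between 2.34 and 2.69 FPKM. Rraga, a GTPase that recruits mTORC1 and the most abundant of the list by the mean over all 6 libraries, did not pass (log2 fold change −0.24, edgeR adjusted p = 0.17). On FPKM rescaled to TPM, where the median of all genes was −0.33, Rraga was at −0.59 (limma adjusted p = 0.0046).

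Promoters of the group were searched for CACGTG, the E-box core of the element that TFEB binds, which reads the same on both strands. RefSeq promoter windows of 300 bases on GRCm38.p6, from 250 bases before to 50 after a start site, were matched for 8 of the 10 genes, and those of Becn1 and Map1lc3a were not. The 8 genes had 10 windows, and 2 held CACGTG, in Atg7 and Atg5, against 7.15% of all 32851 windows. GTAAACA, a FOXO motif searched on both strands, was in 0 of the 10 windows and in 3.65% of all. The stretches with the E-box are shown because both genes rose, with the E-box in capitals and positions counted from the RefSeq start site. In Atg7 the stretch is chr6:114670917-114671016 (plus strand) and the E-box starts at −132. In Atg5 it is chr10:44268239-44268338 (plus strand) and the E-box starts at −14.
Atg7: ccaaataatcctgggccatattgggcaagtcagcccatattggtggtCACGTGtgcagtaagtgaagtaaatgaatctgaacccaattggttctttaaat
Atg5: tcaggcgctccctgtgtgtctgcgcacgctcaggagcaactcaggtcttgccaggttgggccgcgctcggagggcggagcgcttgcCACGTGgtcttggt
The Atg5 stretch lies just upstream of the annotated gene. The Atg7 stretch lies 27820 bases inside it by GENCODE M21, within an intron of 13 of the 17 transcripts, at an internal start site. Across the wider lists, 23 of 95 genes with a window held CACGTG, against 2187 of all 27025 genes with a window. Of the 23 genes with CACGTG 6 rose, 6 fell and 11 did not pass, with a median log2 fold change of 0.01. Of the 72 genes without it 25 rose, 20 fell and 27 did not pass, with a median of 0.00. Over all genes tested 23.4% rose and 27.9% fell. A match is a string of letters and not a measured binding site.

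Lamp2, on the X chromosome (38401357 to 38456454, minus strand), codes for a lysosomal membrane protein needed for autophagosomes to mature. It measured 32.3, 31.0 and 31.9 FPKM at 2 months and 28.5, 29.5 and 29.0 FPKM at 18 months. The ages were separated by a narrow gap, and the log2 fold change of −0.21 (SE 0.12) did not pass the edgeR test (adjusted p = 0.18). Its relative Lamp1 did not pass at 139 and 149 FPKM (log2 fold change 0.01, edgeR adjusted p = 0.94). Of the 7 X-linked genes in the wider lists 3 rose, 1 fell and 3 did not pass. The 3 that rose were Atg4a, Atp6ap2 and Gla. Atg4a and Atp6ap2 had the largest log2 fold changes of the conjugation and V-ATPase lists, and the part of the sex pattern in them was not tested. In the lysosomal membrane list of 8 genes 1 rose, Tmem192 (log2 fold change 1.15, edgeR adjusted p = 0.0099), and 2 fell.

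The genes of the group were part of 12 lists of autophagy and lysosome genes, 116 genes in all, of which 35 rose, 31 fell and 50 did not pass. The median log2 fold change was 0.02, and 9 rose and 11 fell by more than 2-fold. Over all genes tested 23.4% rose and 27.9% fell, and 14.9% and 21.3% did so by more than 2-fold. Leaving out a library gave 19 to 45 rises, with the fewest without 2-month replicate 3. In the 55 genes of the 7 lists from initiation to fusion 18 rose and 18 fell, and in the 43 genes of the 3 lysosome lists 14 rose and 8 fell. Most lists thus held genes of both directions, and rises outnumbered falls in 2 of the 12, the conjugation and V-ATPase lists.

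**Figure D5:**
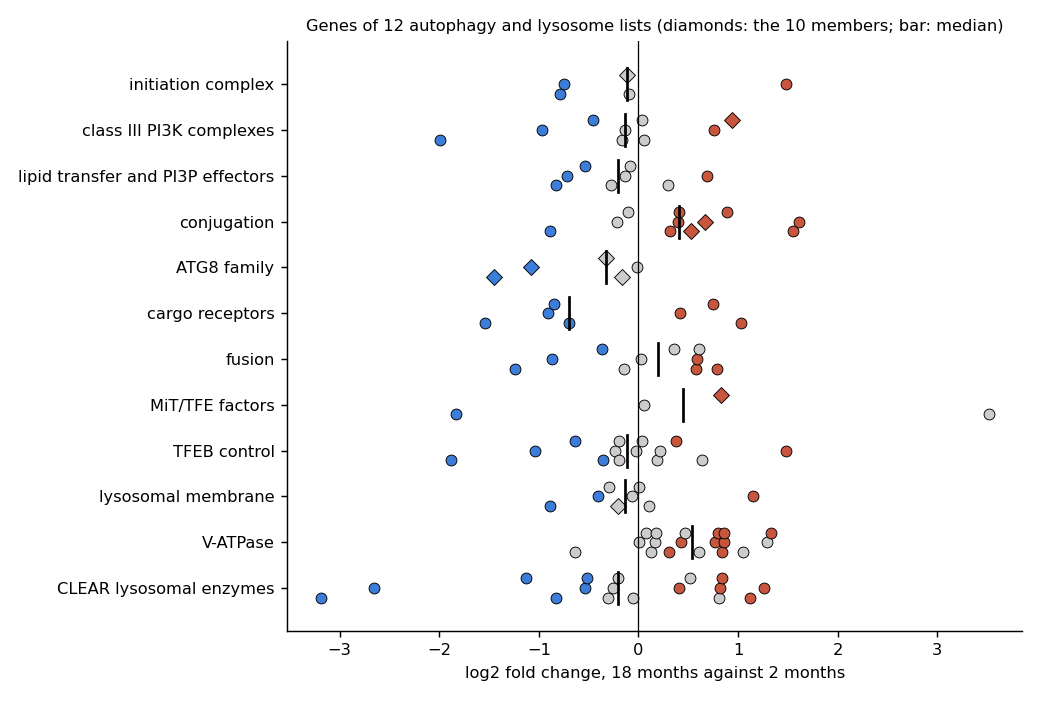
Log2 fold change, 18 months against 2 months, of the 116 genes in 12 autophagy and lysosome lists, each point a gene, with the 10 genes of the group as diamonds, red for genes that rose, blue for genes that fell, grey for genes that did not pass and a bar for each list's median. Points of most lists lie on both sides of 0, and those of the conjugation and V-ATPase lists lie mostly to the right.

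Beyond the autophagosome core, the cargo receptors, which tie ubiquitinated cargo to ATG8 proteins, were split. Of 7 genes 3 rose and 4 fell, with a median log2 fold change of −0.70. Sqstm1, the gene of p62 and the most abundant of them, was 92.9, 61.1 and 78.1 FPKM at 2 months and 43.3, 44.2 and 44.1 FPKM at 18 months (log2 fold change −0.91, edgeR adjusted p = 0.014). Its call was lost without 2-month replicate 3 or 18-month replicate 2 or 3 (edgeR adjusted p = 0.051 to 0.052). Tax1bp1 rose by 1.03 on the log2 scale (edgeR adjusted p = 0.0018), and Calcoco1, a receptor for parts of the endoplasmic reticulum, fell by 1.54 on the log2 scale (edgeR adjusted p = 0.0016). In the list of lipid transfer proteins and PI3P effectors 1 of 8 genes rose and 3 fell, and its most abundant gene by the mean over all 6 libraries, Wipi1, which reads the lipid made by the Beclin-1 complex, fell by 0.72 on the log2 scale (edgeR adjusted p = 0.0048). In the fusion list 3 of 10 rose and 3 fell. There Rab7, the GTPase of late endosomes, rose from 60.1 to 61.5 FPKM to between 96.2 and 97.0 FPKM (log2 fold change 0.59, edgeR adjusted p = 0.0057), and Tecpr1, which helps tether autophagosomes to lysosomes, fell by 1.24 on the log2 scale (edgeR adjusted p = 0.0027).

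The proton pump that acidifies the lysosome and the lysosomal enzymes are known targets of TFEB. Of 18 V-ATPase genes 8 rose and 0 fell, against 23.4% and 27.9% of all genes, with a median log2 fold change of 0.54. Leaving out a library gave 3 to 12 rises (3 without 2-month replicate 3 or 18-month replicate 2 or 3, 12 without 2-month replicate 2, which also gave 1 fall), TPM gave 3 rises and 1 fall, and DESeq2 gave 11 rises and 1 fall. The largest rise was in Atp6ap2, an accessory subunit, at 15.5, 33.0 and 20.9 FPKM at 2 months and 55.4, 62.6 and 63.2 FPKM at 18 months (log2 fold change 1.33, edgeR adjusted p = 0.0084). The most abundant, Atp6v1g1, did not pass (log2 fold change 0.08, edgeR adjusted p = 0.54). In 17 of the 18 V-ATPase genes, 2-month replicate 2 was the young library nearest to the 18-month mean, against 57.1% of all genes, and the same held for 7 of the 10 genes of the group. The 6 markers of osteoclasts, cells in which the V-ATPase is abundant, had their highest sum in that library. Their sums were 37.3, 2410 and 429 FPKM at 2 months and 948 to 1110 FPKM at 18 months. That library was nearest to the 18-month mean for 1 of these 6 markers, 0 of 6 osteoblast and 5 of 12 chondrocyte markers. It was nearest for 10 of 10 neutrophil, 7 of 7 erythroid and 6 of 7 monocyte and macrophage markers. The part of any of these cells in the V-ATPase values was not tested.

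Among 17 lysosomal enzymes and their cofactors 5 rose and 6 fell. Neu1, a sialidase, rose by 1.26 on the log2 scale (edgeR adjusted p = 0.0012), and Gusb, the beta-glucuronidase, by 1.12 (edgeR adjusted p = 0.044). Gaa, which breaks down glycogen in lysosomes, was 75.2, 42.1 and 63.3 FPKM at 2 months and 9.11, 5.85 and 6.17 FPKM at 18 months, a log2 fold change of −3.19 (edgeR adjusted p = 0.0016). The cathepsin gene Ctsf went from 17.8 to 24.4 FPKM to between 3.66 and 3.70 FPKM (log2 fold change −2.65, edgeR adjusted p = 0.00084). Naglu, which degrades heparan sulfate, fell by 1.13 on the log2 scale (edgeR adjusted p = 0.0013), and Ctsd, the most abundant of the list by the mean over all 6 libraries, by 0.83 (edgeR adjusted p = 0.034). The calls of Gusb and Ctsd were lost when any library other than 2-month replicate 2 was left out (edgeR adjusted p = 0.060 to 0.13). Chondrocyte markers fell in the same libraries as Gaa, Ctsf and Naglu, and their part in these falls was not tested.

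Scaling set how many of the 10 genes counted as lower. Rescaled to TPM, which divides each library by its summed FPKM, the median of all genes moved to −0.33, and 6 of the 10 genes fell and 1 rose. Relative to that median the values changed little, at 0.92 for Becn1, 0.65 for Atg5, 0.49 for Atg7, 0.83 for Tfeb, −1.11 for Map1lc3a and −1.42 for Gabarapl1. Ulk1, Gabarap, Lamp2 and Map1lc3b lay at −0.15, −0.17, −0.23 and −0.35.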

How the data were processed

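RNA sequencing of articular cartilage covered 3 libraries from 2-month-old and 3 from 18-month-old wild-type mice. Per the labels, poly(A) RNA was made into strand-marked, paired-end libraries whose adapters carried molecular identifiers. The deposited table holds raw counts for each gene, not normalized, and FPKM that the authors derived by dividing by gene length and library total. The submitters' processing notes name cutadapt 1.9, HISAT2 2.0.4, UMI-tools, StringTie 1.3.4d, DESeq2 and edgeR. The genome build and the strand setting of the counting are not given in the sources used here. Of 33971 genes, 33865 were in GENCODE M21 and 30888 (91.2%) had identical coordinates there, among them the 10 genes described, so positions are on GRCm38. Columns of values per library that were not used numbered 0.

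In edgeR 4.0.16 under R 4.3.3, counts were tested for age (TMM, filterByExpr, quasi-likelihood test, no covariates), with Benjamini-Hochberg adjustment over 20397 genes. A gene rose or fell at an adjusted p below 0.05, and fold changes are 18 months over 2 months. The SE was derived from each log2 fold change and its F statistic. Levels are FPKM, as mean ± SD over 3 libraries. Libraries of an age differed by 6.32 to 48.8 times counting noise and were kept separate. The totals of 48171507 to 59085179 counts put counting error below the spread between libraries, and no interval was needed. Shares were compared by a two-sided exact permutation test in scipy 1.17.1. Alternatives were median-of-ratios and total-count scaling, no filter, DESeq2 1.42.0, limma-trend 3.58.1 on log2(FPKM + 0.1) above a mean of 0.1 FPKM, a pseudocount of 1, TPM, a replicate block, shares of counts, and leaving out each library. Rescaling to the longest protein-coding transcript was added after seeing the data. The scripts were tested on simulated data with known changes.

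The 10 genes and all lists were chosen with earlier results of these data known. The text names those genes, their relatives, up to 3 rises and 3 falls of more than 2-fold in each list among genes that averaged 1 FPKM or more, each list's most abundant gene by the mean over all 6 libraries, the 3 profiles nearest to Tfeb, and the most abundant markers. Lists of skeletal muscle, adipocyte, endothelial, osteoblast, megakaryocyte and B lymphocyte markers were also summed. Ddx3y, the genes at 0 counts and the overlapping genes were chosen after their values were seen. Python 3.11.15 with pandas 2.3.3 and matplotlib 3.10.9 made the summaries and figures.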

Additional observations from a re-analysis of the deposited data

How the results depend on the processing

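The direction of all 6 calls held in every alternative run, and Becn1, Map1lc3a and Gabarapl1 also stayed past the threshold in each. Against 4 rises and 2 falls, TPM gave 1 rise and 6 falls, the replicate block 2 rises, and leaving out a library 2 to 4 rises (2 without 2-month replicate 3) and 2 to 3 falls. Against 0 rises over 2-fold, DESeq2 and limma on log2(FPKM + 0.1) each gave 1, and leaving out a library 0 to 1 (Becn1, without 2-month replicate 2). A pseudocount of 1 left 1 fall over 2-fold in place of 2. In the wider lists 35 rises became 13 on TPM, 22 with the block and 19 to 45 without a library (19 without 2-month replicate 3, 20 without 18-month replicate 2 or 3). The 31 falls became 48 on TPM, the 9 rises over 2-fold 6 to 21 without a library (21 without 2-month replicate 2), and the 11 falls over 2-fold 6 with a pseudocount of 1 and 23 on TPM. Over all genes the 4769 rises became 3038 to 6879 without a library and 3912 on TPM. Leaving out a library also lowers the number of samples, and on TPM the median of all genes is lower, as given above. Other causes were not tested.

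Deviations of same-numbered libraries from the mean of their age correlated at 0.034, 0.044 and −0.024, and of the 3 pairs none was over 0.1. Libraries with different numbers gave −0.055 to 0.053. With 3 libraries per age, this check cannot exclude that the samples were paired. With the replicate block, Atg7 (0.52, edgeR adjusted p = 0.071) and Tfeb (0.86, edgeR adjusted p = 0.064) lost their calls, and over all genes 4769 rises and 5688 falls became 3555 and 4301.

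Reported values that changed sign were near 0 in the main analysis. Without a library Ulk1 ran from −0.17 to 0.00 (0.00 without 18-month replicate 1) and Gabarap from −0.26 to 0.00 (0.00 without 2-month replicate 1). Gabarapl2 was 0.04 with median-of-ratios factors, 0.07 with total counts, DESeq2 and limma at either pseudocount, 0.02 without a filter, −0.36 on TPM (limma adjusted p = 0.035) and −0.05 to 0.07 without a library. Lamp1 was −0.34 on TPM (limma adjusted p = 0.037) and −0.04 without 2-month replicate 2. Tfe3 was −0.31 on TPM and −0.07 to 0.15 without a library, and Atp6v1g1 was −0.27 on TPM. With shares of counts the age difference was 1.71 percentage points in place of 0.788 for Map1lc3b and 7.47 in place of 11.1 for Gabarap, 0.0048 in place of −0.0298 for the LC3 over GABARAP ratio and −0.0532 in place of −0.339 for Map1lc3a over Map1lc3b. Rescaled to the longest protein-coding transcript, the difference was 8.69 for Gabarap and −0.126 for Map1lc3a over Map1lc3b; counts keep each gene's length and FPKM divide by it. With a pseudocount of 1, 0 of the 3 genes nearest to Tfeb stayed.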

Other observations

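Gene Ontology terms in the deposited table gave a wider view of the pathway and were chosen after seeing the data. Of 171 tested genes with the term autophagy 47 rose and 40 fell, with a median log2 fold change of 0.04, beside 23.4% and 27.9% of all genes and a median of −0.02. Of 60 genes with the term autophagosome assembly 17 rose and 16 fell (median −0.09), and of 34 with macroautophagy 9 rose and 7 fell (median 0.04). Of 62 genes with the term autophagosome 20 rose and 11 fell (median 0.12). The term lysosome covered 363 tested genes, of which 108 rose and 86 fell (median 0.13), and by more than 2-fold 66 rose and 45 fell. The terms overlap with each other and hold 1 to 8 of the 10 genes each.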
